A study of Mus musculus with 24 samples.

Results

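The liver and the colon of the same 12 mice were compared. All 24 arrays of the series enter the comparison, 12 of liver and 12 of colon, chosen by the tissue and mouse number in the sample labels. The mice were female C57BL/6 offspring aged 12 weeks. Their dams ate high-fat chow in which selenium and folate were both low (HF-low), starting 7 days before mating and lasting through gestation and lactation, so that every animal carried this maternal exposure and there was no group of mice on a standard diet. From weaning at about 28 days, 6 mice stayed on that diet (HF-low-low) and 6 received high-fat chow that supplied enough of both nutrients (HF-low-suf). RNA came from whole tissue, so a colon sample held mucosa, muscle wall, nerves and attached tissue together. In such samples fewer cells of a type and less RNA per cell cannot be told apart.

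Hepatocytes, the main cells of the liver, release most plasma proteins into the blood, convert ammonia to urea, make bile acids and glucose, and oxidise drugs and steroids with cytochrome P450 enzymes. The colon is lined by absorptive and mucus-secreting goblet cells that turn over from dividing crypts, and its wall holds smooth muscle, enteric neurons and connective tissue. The HNF and CEBP families of transcription factors are known for driving genes in hepatocytes, CDX factors for doing so in intestinal epithelium, and serum response factor, which binds the CArG box, for doing so in smooth muscle.

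Each array held RNA of 1 tissue of 1 mouse in Cy3 and a common reference in Cy5, with no dye swap. Values given below are log2 ratios of Cy3 to Cy5, called log2 ratios, and a difference is liver minus colon, positive where the mRNA was more abundant in liver. A probe was called differentially expressed where limma's Benjamini-Hochberg adjusted P was under 0.05 and the fold change over 1.5, with diet as a covariate and the mouse as a random block. Between 25.6% and 59% of the probes of a liver array were well above background, with a median of 36.6%, and between 37.6% and 71.5% of those of a colon array, with a median of 42.1%. A probe is named as measured in a tissue where it was well above background on at least 6 of its 12 arrays, which held for 15209 of 41174 probes in liver (36.9%), 18078 in colon (43.9%) and 14207 in both.

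The labels describe the Cy5 reference as an equal mixture of the colon and liver RNA of these mice, while the series description and the methods name the intestinal part as intestine. Some of its transcripts went against a mixture of colon and liver. On every one of the 24 arrays, 99 probes lay more than 2 log2 units below the reference, although their Cy5 signal was well above background throughout. In lists chosen after these values were seen, 9 of 13 kidney genes and 12 of 12 genes of small intestinal Paneth cells lay that low. Of the other lists chosen in this way, 2 of 6 genes of decidua and placenta did so, and 0 of 4 Y chromosome, 0 of 8 brain, 0 of 5 testis and 0 of 4 heart genes. At the looser limit of below the reference on every array were 4 of 4 Y chromosome genes, in these female mice. That limit also held for 11 kidney, 12 Paneth cell, 4 decidua and placenta, 1 brain, 0 testis and 0 heart genes. The Y chromosome genes were well above background in Cy3 on no array. Even so they differed between the tissues by 1.28 (Eif2s3y), 1.07 (Ddx3y), 0.76 (Kdm5d) and 0.56 (Uty). Kap, an androgen-regulated kidney transcript, had log2 ratios between -7.92 and -6.64 in liver and between -7.96 and -7.27 in colon. At the other end, 147 of the 26050 probes with Cy5 above background on all arrays exceeded 4 times the reference on every array of a tissue. In an equal mixture the linear ratios of liver and colon would add up to 2, and their sum over these probes had a median of 1.97 with a 5th percentile of 0.939 and a 95th percentile of 3.47. Where these transcripts in the reference came from was not tested. The same reference was on every array, with correlations of the log2 Cy5 signal between arrays of 0.927 to 0.998, so that for most probes it drops out of liver minus colon, with exceptions given below, while a log2 ratio by itself tells how a tissue compares with this reference and not with the other tissue.

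**Figure D1:**
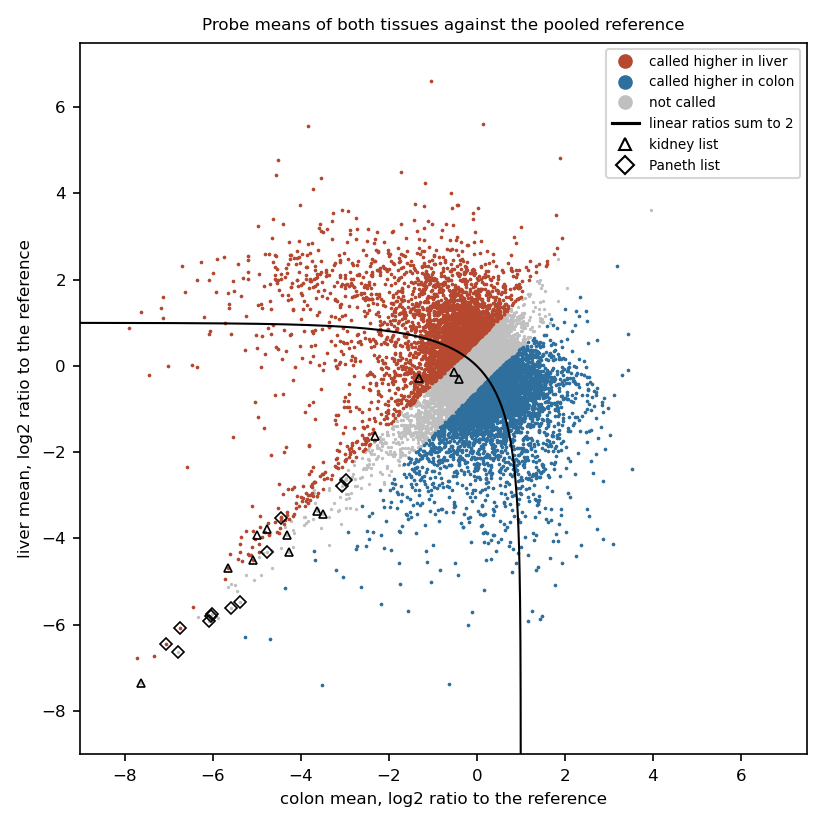
Mean log2 ratio to the reference in colon (horizontal axis) and liver (vertical axis) for each probe measured in at least one tissue, coloured by call, with kidney and Paneth cell genes as open symbols and the line on which both linear ratios sum to 2. Points in the lower left are transcripts far below the reference in both tissues, among them Kap near -7 in both, and the arms at the upper left and lower right are the tissue-specific transcripts.

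Albumin, the main protein of plasma, and Krt20, a keratin of mature intestinal epithelium, checked the tissue labels, and both matched them on all 24 arrays. Alb (Alb1 in the files; probe at chr5:90443687-90443746, build mm7) had a lowest, median and highest log2 ratio of -0.04, 0.99 and 1.34 over the 12 livers and of -5.12, -4.23 and -3.96 over the 12 colons. Its difference was 5.20 (SE 0.15), a fold change of 36.8, and Cy3 alone gave 4.59. Its Cy5 spot was saturated on 13 arrays, so that the size of this value is uncertain. Krt20 (chr11:99537501-99537560, minus strand) had values of -6.63, -6.11 and -5.00 in liver and -0.46, -0.30 and 0.70 in colon, a difference of -5.80 (SE 0.15). The ranges of the tissues did not overlap for either gene. The first principal component held 65.1% of the variance over all probes and placed every liver on one side and every colon on the other. Log2 ratios of livers correlated with one another at 0.655 to 0.96 and those of colons at 0.634 to 0.915, while the liver and the colon of 1 mouse correlated at 0.014 to 0.228. Over all 144 pairs of a liver and a colon array the range was 0.001 to 0.283. The medians were 0.153 within a mouse and 0.136 over all pairs.

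Some livers stood apart, and their values are given here beside the tissue difference. The liver of HF-low-suf replicate 1 had a median log2 ratio of 2.24 over 11 adipose genes, where the other livers lay between -1.46 and -0.16 and the colons between 0.43 and 2.18. That of HF-low-suf replicate 2 had a median of -2.65 over 21 skeletal muscle genes, against -4.76 to -3.63 in the other livers. In the livers of HF-low-low replicate 6 and HF-low-suf replicates 4 and 5 the median of 31 colon epithelial genes lay between -1.85 and -1.75, against -3.08 to -2.15 in the other livers. The same 3 livers had the highest Krt20 of the 12, at -5.36, -5.00 and -5.53. Their medians over the pancreas list, at -1.10, -1.02 and -1.49, and over the goblet cell list, at -2.31, -2.09 and -2.63, were also the highest 3 of the livers, as were their values of Hoxd13, a probe well above background on no array, at -0.16, -0.19 and -0.26. Their values of Hoxb9, at -0.28, -0.26 and -0.50, and of Grp, at -0.10, -0.11 and -0.20, were the highest 3 as well. The rise was thus not particular to colon epithelial genes. Without these 5 mice 5059 probes were called higher in liver and 5603 higher in colon, and 93.9% of the 9706 calls of all mice were kept. Why these livers stood apart was not tested.

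Liver and colon differed widely. Of 41174 probes, 4684 (11.4%) were higher in liver and 5022 (12.2%) higher in colon, and by the brightest probe of each of 22410 named genes, 3176 genes (14.2%) were higher in liver and 3657 (16.3%) in colon. Among the called probes, 3522 were higher in liver and 3751 lower in liver in every mouse measured. Liver therefore made up 48.3% of the calls, a split that differed with the normalization. With each array centred on its median instead of loess, 2674 probes were higher in liver and 6475 in colon, a share of 29.2%, and with the processed signals of the Feature Extraction software and no loess they were 5771 and 8031, a share of 41.8%. No probe changed direction between calls in any alternative.

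The sizes were less even than the counts. At a fold change over 16, 344 probes were higher in liver and 115 in colon, at one over 64 these were 113 and 16, and at one over 256 they were 18 and 0. The liver excess at 16-fold remained with the signals processed by the Feature Extraction software, which gave 520 against 388 probes, and with median centring, which gave 277 against 180. Without the 5 mice whose liver stood apart it was smaller on the colon side of the comparison, with 372 probes in liver and 181 in colon. Detection went the other way. Only 58 of the probes higher in liver were well above background on all 12 livers and on no colon, whereas 395 of those higher in colon were well above background on all 12 colons and on no liver. Of the called probes, 3157 higher in liver and 2709 higher in colon were measured in both tissues. Whether a very low signal is RNA of the tissue was not tested, and Kap, which differed by 0.28 between the tissues, was well above background on all 24 arrays.

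**Figure D2:**
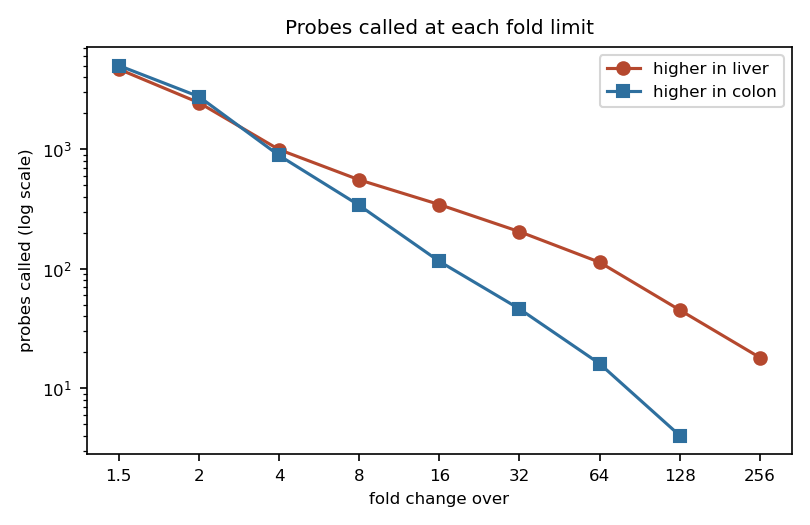
Number of probes called at each limit on the fold change (vertical axis logarithmic, limits evenly spaced on the horizontal one), for probes higher in liver (circles) and in colon (squares). The lines start near each other, with 4684 and 5022 probes over 1.5-fold, and separate above 4-fold, reaching 113 and 16 probes over 64-fold.

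Among genes measured in both tissues and saturated on no array, those of largest difference included secreted plasma proteins and enzymes of the hepatocyte. Fgg, the gamma chain of fibrinogen, had a lowest, median and highest log2 ratio of 1.29, 1.65 and 1.81 in liver and -7.48, -7.14 and -6.62 in colon. Its difference of 8.71 (SE 0.09) was a fold change of 417. Serpinc1, which encodes antithrombin, had values of 2.11, 2.43 and 2.65 in liver and -6.65, -6.30 and -5.45 in colon, and differed by 8.68 (SE 0.10), or 411-fold. In both genes the spread within a tissue was a small part of the gap between tissues, and no mouse came near the opposite range. Cyp3a41a, a steroid-metabolising P450, differed by 8.99 (SE 0.11), Apoh, a plasma glycoprotein, by 8.27 (SE 0.09), and Fabp1, the fatty acid binding protein of hepatocytes, by 8.23 (SE 0.19). Further genes among the 15 of largest difference were Ambp, Hpx and Itih3 of plasma, Ces1c, a carboxylesterase secreted into plasma, Rgn, Uox, Mat1a, Apof, Cyp4a31 and Cyp3a16, with differences from 7.38 to 8.16. Itih3 rested on 11 mice because of outlier spots. Members of the Cyp2a, Cyp3a, Cyp4a and Mup families are near-identical in sequence, and a probe named for one may bind several.

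Among the colon genes of largest difference were ones known from epithelial, goblet, endocrine and smooth muscle cells. Tspan1, an epithelial tetraspanin, had log2 ratios of -6.61, -5.97 and -4.59 in liver and 1.12, 1.43 and 1.61 in colon, a difference of -7.30 (SE 0.18). Lgals4, a lectin of intestinal epithelium (chr7:25775797-25775856), had -6.30, -5.80 and -5.14 in liver and 1.23, 1.46 and 1.78 in colon, a difference of -7.29 (SE 0.11). The colons of the 12 mice spanned less than 1 log2 unit in both genes, and the livers more. Lypd8, which keeps flagellated bacteria from the colonic epithelium, differed by -7.09 (SE 0.14), Agr2, a disulfide isomerase needed for mucin production, by -6.93 (SE 0.16), and Clca1, a goblet cell product listed as Clca3, by -6.76 (SE 0.16). Guca2a, which encodes guanylin, differed by -6.67 (SE 0.12), Chgb of endocrine granules by -6.51 (SE 0.22), Cnn1, a smooth muscle calponin, by -6.51 (SE 0.15), and Myl9, the regulatory light chain of smooth muscle myosin, by -6.03 (SE 0.13). Cfd, the adipose serine protease adipsin, was the exception to tight groups: its livers ran from -4.44 through -2.85 to 3.68 and its colons from 2.28 through 3.57 to 4.17, with a difference of -5.93 (SE 0.55). The single liver in the range of the colons was HF-low-suf replicate 1, whose adipose genes are given above, yet Cfd was lower in liver than in colon within each of the 12 mice. Without that mouse the difference was -6.46.

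**Figure D3:**
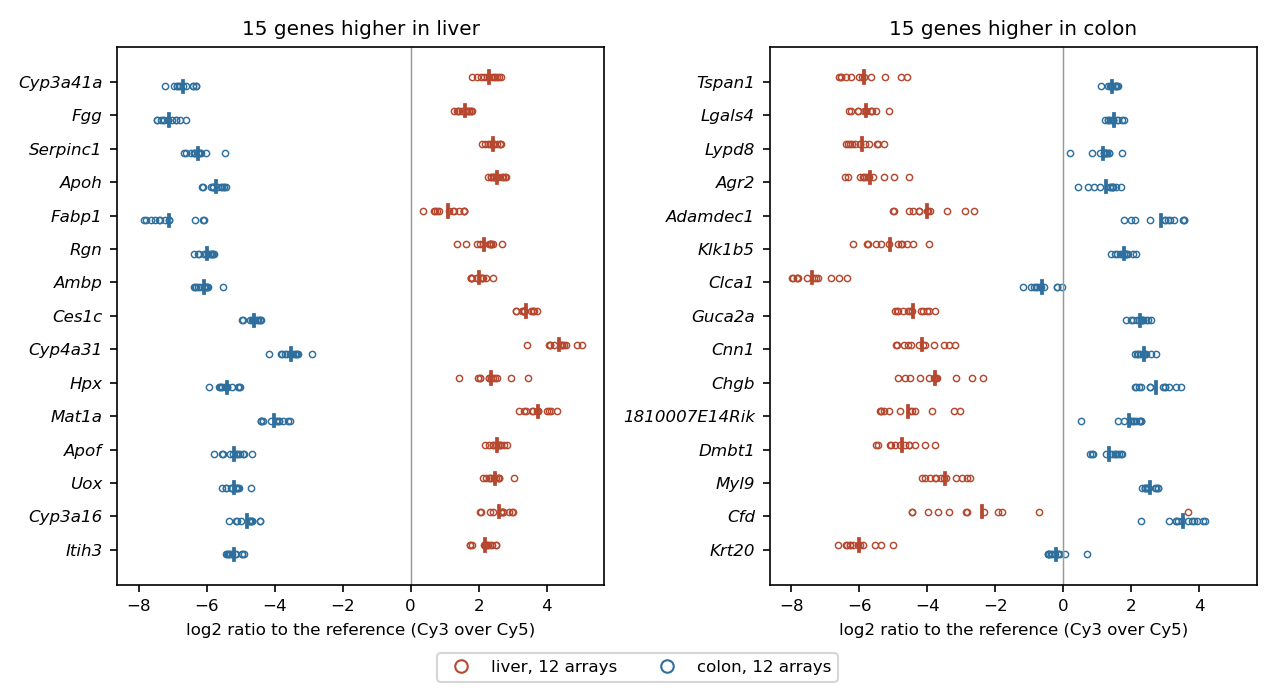
Log2 ratio to the reference on each of 12 liver and 12 colon arrays (open circles) with the tissue mean (vertical bar), for the 15 genes measured in both tissues and saturated on no array with the largest difference in each direction. In the left panel the livers lie right of 0 and the colons left of it, as with Fgg near 1.59 and -7.12, and in the right panel Cfd has 1 liver at 3.68 among the colons.

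Where a probe was well above background on all arrays of one tissue and on none of the other, only a lower bound can be given. It was computed between the Cy3 channels of both tissues after loess and Aquantile scaling, and with no dyes swapped any bias left by that scaling was not checked. Ttpa, which loads vitamin E onto lipoproteins, was at least 71.1-fold higher in liver, with log2 ratios of 2.73, 3.13 and 3.73 over the livers, Slc2a2, the hepatic glucose transporter, at least 54.6-fold, and Cyp7a1, the rate-limiting enzyme of bile acid synthesis, at least 49.6-fold. A second Cyp7a1 probe differed by 3.80 (SE 0.33). Ttpa and Cyp7a1 lay in every liver above 4 times the reference. In the other direction B3galt5, a galactosyltransferase of intestinal glycans, was at least 42.7-fold higher in colon, Tmigd1, an epithelial adhesion protein, at least 38.1-fold, Acta2, smooth muscle actin, at least 26.3-fold, and Adra2a, an adrenergic receptor, at least 21.6-fold. The other 4 Acta2 probes differed by -4.46, -2.12, -1.81 and -0.43, and the last of these was not called, so the bound is that of 1 probe. The 15 liver genes of this kind had bounds down to 21.2-fold and the 15 colon genes down to 8.96-fold. In 5 of these 30 genes the bound from Cy3 exceeded the fold change fitted on the ratios. Cyp2a12 is the widest case, with a fitted log2 difference of 4.79 and a bound of 110-fold, and its Cy5 signal was 2.51 log2 units brighter on liver arrays than on colon arrays though the reference was the same. Such a shift of Cy5 by more than 1 log2 unit occurred in 23 of the 9706 called probes, and in Selenop, Gnmt, Hamp, Hamp2 and Cyp4a14 among the genes named below. Such shifts, and smaller ones, moved the size of named genes: Cy3 alone gave 8.72 for Mat1a, 10.8 for Cyp4a14, 6.93 for Gnmt, 7.44 for Fabp1, 7.22 for Ces1c, 8.53 for Cyp4a31, -6.49 for Cyp2c55, -6.46 for Car1, -5.84 for Myh11 and -5.48 for Chga. All kept their direction. Apart from these bounds, a gene that was well above background on fewer than 6 arrays of the tissue where it was lower has a difference measured against values near background, and its size is not exact. Among the genes below this held in colon for Cfi, Slco1b2, Gckr, Cyp4a14, Cyp2a5, Cyp2c44, Ugt2a3, Onecut1, Onecut2, Hamp2, Cd5l and Clec4f, and in liver for Cyp2c65, Slc9a2, Penk, Uchl1, Chga, Cdx2, Hoxb6, Hoxb7, Hoxb9, Prom1, Ephb3 and Adipoq.

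Promoter sequences are shown for the marker genes and for 4 of the genes above, picked as examples of the motifs of the factors named at the outset. They are not a fair sample, and other genes with a match are named after them. They are the 250 bases before the start of transcription from RefSeq (GRCm38.p6, a build other than that of the probes), printed 5′ to 3′ on the strand of the gene, with the matched letters in capitals. The motifs were GTTAAT for HNF1 (the core of its site), CAAAGTC for HNF4, TTTATGG for CDX and the CArG box, each on both strands, and the TATA box as TATAAA on the strand of the gene. The first group, higher in liver, holds an HNF1 or HNF4 match in each.
Alb: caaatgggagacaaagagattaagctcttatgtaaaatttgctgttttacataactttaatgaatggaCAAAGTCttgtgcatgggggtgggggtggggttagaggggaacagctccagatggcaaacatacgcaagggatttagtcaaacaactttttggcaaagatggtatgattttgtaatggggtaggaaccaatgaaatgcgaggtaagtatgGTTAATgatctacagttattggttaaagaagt
Fabp1: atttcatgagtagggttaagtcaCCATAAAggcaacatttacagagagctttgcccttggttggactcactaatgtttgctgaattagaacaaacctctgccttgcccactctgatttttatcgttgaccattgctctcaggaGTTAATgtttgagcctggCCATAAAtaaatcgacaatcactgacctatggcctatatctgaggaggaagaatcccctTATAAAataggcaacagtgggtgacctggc
Cyp3a41a: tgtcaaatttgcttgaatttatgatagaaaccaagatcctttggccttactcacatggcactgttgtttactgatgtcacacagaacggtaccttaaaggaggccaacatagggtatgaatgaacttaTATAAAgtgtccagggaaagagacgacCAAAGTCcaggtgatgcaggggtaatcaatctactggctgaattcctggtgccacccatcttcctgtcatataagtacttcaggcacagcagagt
The second group, higher in colon, holds a TATA box in Krt20, a CDX match in Agr2 and a CArG box in Myl9.
Krt20: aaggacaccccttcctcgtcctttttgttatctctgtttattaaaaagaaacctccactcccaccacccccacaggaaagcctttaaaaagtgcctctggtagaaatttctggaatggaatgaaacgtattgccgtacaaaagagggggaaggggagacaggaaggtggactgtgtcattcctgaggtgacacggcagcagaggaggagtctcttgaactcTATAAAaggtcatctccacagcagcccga
Agr2: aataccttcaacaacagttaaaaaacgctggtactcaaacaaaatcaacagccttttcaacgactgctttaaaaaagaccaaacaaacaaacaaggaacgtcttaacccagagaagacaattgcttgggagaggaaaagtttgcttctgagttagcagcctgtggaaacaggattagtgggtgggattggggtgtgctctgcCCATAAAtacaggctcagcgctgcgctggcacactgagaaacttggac
Myl9: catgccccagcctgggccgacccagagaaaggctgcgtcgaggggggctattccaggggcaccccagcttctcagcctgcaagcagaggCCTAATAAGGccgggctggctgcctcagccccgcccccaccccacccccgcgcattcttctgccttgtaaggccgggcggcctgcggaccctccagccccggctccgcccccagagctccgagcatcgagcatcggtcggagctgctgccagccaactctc

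The HNF1 core stood 32 bases before the start in Alb (chr5:90460620-90460869, plus strand) and 107 bases before it in Fabp1 (chr6:71199629-71199878, plus strand), which also held 2 CDX matches. Cyp3a41a (chr5:145720137-145720386, minus strand) held the HNF4 letters 95 bases before its start. Agr2 (chr12:35992675-35992924, plus strand) held the CDX letters 48 bases before the start and Myl9 (chr2:156775214-156775463, plus strand) the CArG box 161 bases before it, while Krt20 (chr11:99438154-99438403, minus strand) held a TATA box 29 bases before it and none of the other motifs. Of 22410 named genes, 14615 had such a promoter. The HNF1 core was found in 62 of 320 promoters of genes with a log2 difference over 3 (19.38%), in 10 of 199 of those under -3 (5.03%) and in 956 of all 14615 (6.54%). The HNF4 letters were in 13.12%, 8.04% and 4.38% of the same 3 sets, CDX in 4.38%, 4.52% and 2.52%, the CArG box in 0.62%, 3.52% and 1.42%, and the TATA box in 16.88%, 13.07% and 8.05%. The sets also differed in base composition, with a mean GC content of 51.14%, 56.85% and 56.38%, and whether the shares follow from that was not tested. These are matches of letters only. Of the 15 genes of largest difference in each direction, 11 had a promoter here, and the HNF1 core was in 1 of the 11 for liver, Fabp1, and in 1 of the 11 for colon, Lypd8. Among the same liver genes Hpx and Cyp3a16 also held the HNF4 letters, and Hpx a CArG box.

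Lists of genes by function follow, each gene by its brightest probe. They are to be read against 14.2% of all named genes called higher in liver, 16.3% called higher in colon and a median difference of 0.02 over all 22410. All 27 plasma proteins, 21 coagulation factors, 19 complement genes and 16 genes of lipoproteins and their assembly were higher in liver, with median differences of 5.57, 5.76, 4.89 and 5.73. Cfi, the complement factor I protease, differed by 8.40 (SE 0.13), Mbl2, mannose-binding lectin, by 6.58 (SE 0.10), Apof by 7.73 (SE 0.10) and Kng1, kininogen, by 7.35 (SE 0.12). The smallest of these differences was 1.53, in Pros1, the anticoagulant protein S. No member of the lists was higher in colon, under any of the alternatives in processing or samples.

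Enzymes of hepatic metabolism were nearly as uniform. All 8 urea cycle genes were higher in liver with a median of 4.37. All 23 genes of amino acid catabolism (median 5.02) and all 13 of gluconeogenesis and hepatic glucose handling (4.31) were higher in liver as well. Gckr, the regulator of glucokinase, had log2 ratios of 2.56, 2.85 and 3.23 in liver and -4.72, -4.31 and -3.71 in colon, and differed by 7.13 (SE 0.11). Of 17 bile acid genes 16 were higher in liver, with Slco1b2, a hepatic uptake transporter, at 8.34 (SE 0.16) and Abcb11, the canalicular export pump, at 6.59 (SE 0.09). The remaining one was Nr1h4, the bile acid receptor FXR, at 0.32, which did not pass. Fatty acid oxidation had smaller differences, 18 of 22 genes higher in liver with a median of 1.12, led by Acot1, a peroxisome proliferator responsive thioesterase, at 3.77 (SE 0.17).

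Cytochromes P450 of families 1 to 4 were mostly higher in liver. Of 44 genes, 35 were higher in liver, 6 higher in colon and 3 not called, with a median of 3.13. Cyp4a14, a fatty acid hydroxylase, had log2 ratios of 5.08, 5.48 and 6.33 in liver and -4.21, -4.01 and -2.84 in colon, the largest named difference in the list at 9.40 (SE 0.15). Cyp2a5, which oxidises coumarin, followed at 9.30 (SE 0.20). Cyp4a14 was well above background on 2 colons and Cyp2a5 on 1, and Cyp2c65, described next, on 1 liver, so these sizes lean on values near background. Cyp2c65 went the other way, with -5.47, -4.46 and -2.26 in liver and 2.66, 3.13 and 3.37 in colon, a difference of -7.24 (SE 0.27), and Cyp2c55 differed by -5.55 (SE 0.18). Both belong to the Cyp2c family, of which Cyp2c44, Cyp2c40 and Cyp2c70 were higher in liver by 6.85, 5.82 and 5.73. Conjugating enzymes were also mostly higher in liver, in 24 of 38 cases, with 6 higher in colon. Ugt2a3, a glucuronosyltransferase, differed by 6.79 (SE 0.17) and Gsta3, a glutathione transferase, by 6.15 (SE 0.15), against -4.43 (SE 0.13) in Mgst2, a microsomal transferase.

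The genes of goblet cells and mucus were higher in colon in 16 of 19 cases, with a median of -3.53. Tff3, a trefoil peptide secreted with mucus, had log2 ratios of -4.56, -3.98 and -3.40 in liver and -0.04, 1.22 and 1.76 in colon, a difference of -5.06 (SE 0.16), and Muc2, the main gel-forming mucin, differed by -4.50. Muc20 was the only one called higher in liver, at 0.60 (SE 0.09), and lost that call without HF-low-suf replicate 1, 3 or 4, among other alternatives. Of 31 genes of epithelial structure 29 were higher in colon and none in liver, with a median of -2.99, among them Krt19 at -5.59 (SE 0.13) and Cldn7, a tight junction claudin, at -5.07. Krt18, the partner of Krt8 in simple epithelia including hepatocytes, had a difference of 0.21 and did not pass.

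Transport genes were mostly higher in colon. In the list of colonic ion and water transport 20 of 28 genes were higher in colon, with a median of -2.49. The 4 called higher in liver were near the share of 14.2% of all named genes, and 1 of them, Aqp8, was measured in either tissue. Slc9a2, a sodium-proton exchanger, differed by -6.05 (SE 0.25) and Car1, carbonic anhydrase, by -5.71 (SE 0.12). Aqp8, a water channel of both organs, was higher in liver by 3.03 (SE 0.32): its livers lay at -0.19, -0.03 and 0.48 and its colons at -3.98, -3.42 and 0.78. The highest colon, that of HF-low-low replicate 4, lay above every liver, and in the other 11 mice the liver was higher. Without that mouse the difference was 3.38.

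The muscle wall, its nerves and the endocrine cells of the colon gave the other large groups. Of 23 smooth muscle genes 17 were higher in colon and none in liver, with a median of -3.04. Cnn1 had log2 ratios of -4.91, -4.19 and -3.18 in liver and 2.10, 2.37 and 2.72 in colon, and Myh11, the smooth muscle myosin heavy chain, differed by -5.14 (SE 0.19). Among 29 genes of enteric neurons, glia and pacemaker cells 23 were higher in colon, though 2 of the 29 were measured in liver, so that the liver values of most are background. Penk, the enkephalin precursor, differed by -3.95 (SE 0.24) and Uchl1, a neuronal ubiquitin hydrolase, by -3.54 (SE 0.17). Of 18 endocrine genes 14 were higher in colon, with Pyy, the peptide YY gene, at -5.27 (SE 0.20) and Chga at -4.82 (SE 0.18). Of the 18, 4 were measured in liver and 15 in colon, and 2 were well above background on no array. Stromal and collagen genes were higher in colon in 20 of 26 cases, with a median of -1.10, Col3a1 at -2.53 (SE 0.23) and Col1a1 at -2.50 (SE 0.28). The 2 called higher in liver were Fn1, the fibronectin that hepatocytes also secrete into plasma, by 2.93 (SE 0.18), and the collagen gene Col14a1, by 1.43.

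**Figure D4:**
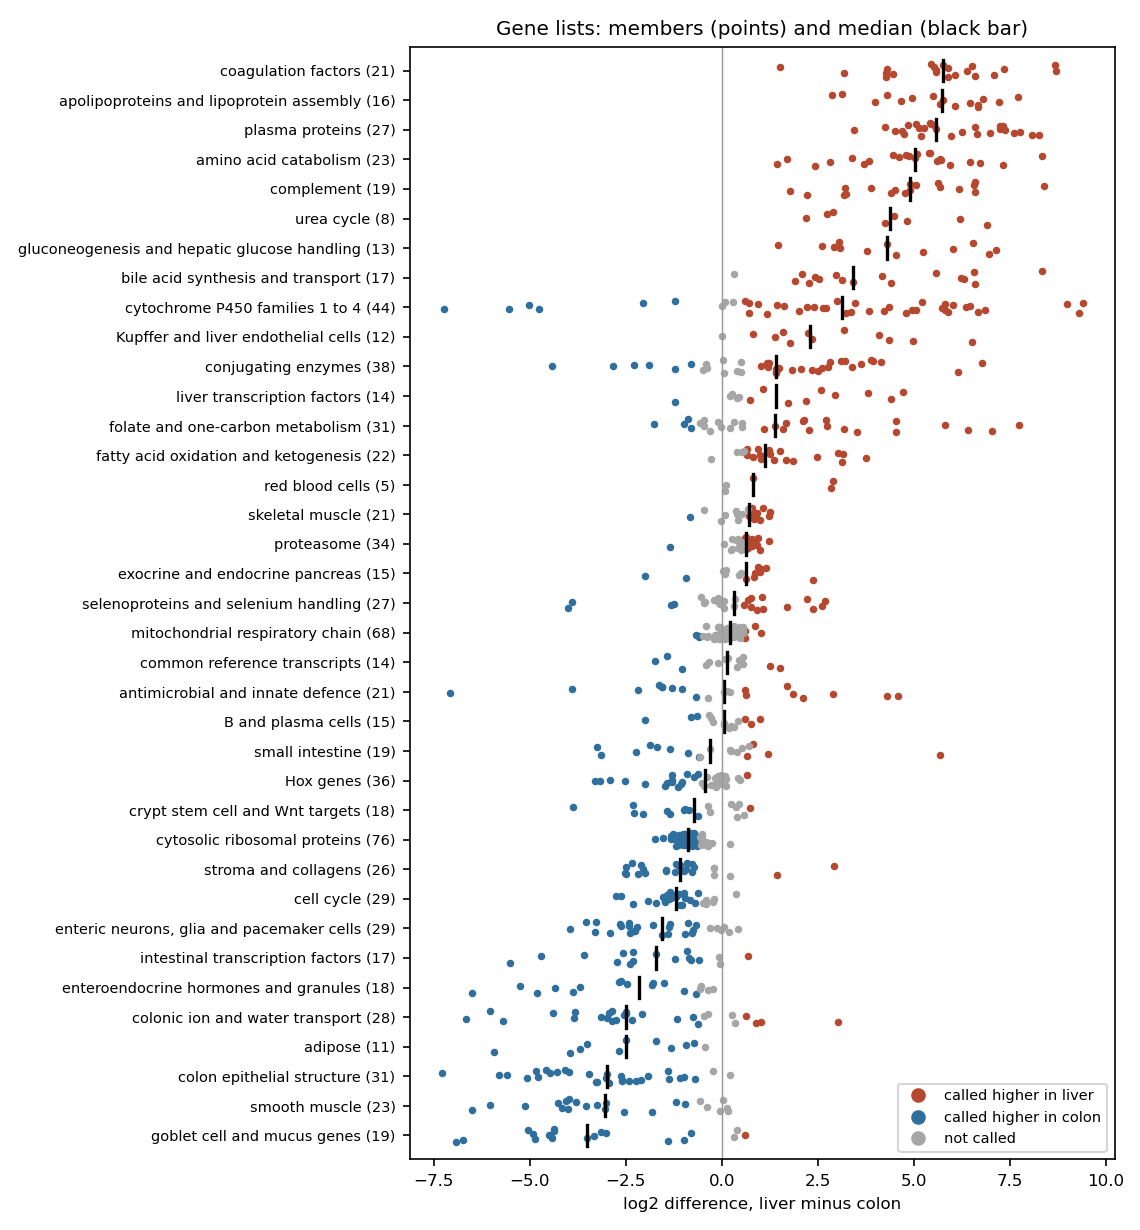
Log2 difference, liver minus colon, of each gene (points, coloured by call) in the lists of genes by function, with the number of genes on the array in parentheses and the list median as a black bar. The lists are ordered by their median, from -3.53 for goblet cell and mucus genes to 5.76 for coagulation factors, and the cytochrome P450 list spans from -7.24 to 9.40.

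Of 14 liver factors 9 were higher in liver with a median of 1.40, among them Onecut2 at 4.73 (SE 0.12), Hhex at 4.41 (SE 0.20) and Onecut1 at 3.82 (SE 0.16). Hnf4a, Nr5a2 and Nr1i2, which intestinal epithelium also uses, had differences of 0.44, 0.27 and 0.20 and did not pass. Foxa1, a pioneer factor of endodermal organs, was higher in colon by 1.21 on the log2 scale (SE 0.09). Intestinal factors were higher in colon in 14 of 17 cases. Cdx2, which sets intestinal identity, had log2 ratios of -4.62, -3.94 and -2.09 in liver and 0.32, 2.14 and 2.57 in colon, a difference of -5.52 (SE 0.27), followed by Klf4 at -4.71 (SE 0.13) and Klf5 at -3.60 (SE 0.21). Of 36 Hox genes, which mark position along the body axis, 16 were higher in colon, though 2 of the 36 were measured in liver. The most negative differences were those of Hoxb7 at -3.31 (SE 0.21), Hoxb6 at -3.17 (SE 0.20) and Hoxb9 at -2.90 (SE 0.18). Hoxd13, and Hoxb13 of the list of intestinal factors, were the only genes of these lists called higher in liver, at 0.65 and 0.67 (both SE 0.22), yet Hoxd13 was well above background on no array and Hoxb13 on 1 of each tissue, and both lost the call within each diet alone, within each scan day alone and without HF-low-suf replicate 4.

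Cell cycle genes were mostly higher in colon. Of 29 cell cycle genes 23 were higher in colon and none in liver, with a median of -1.20. Mki67, the proliferation marker Ki-67, had log2 ratios of -4.10, -3.44 and -1.84 in liver and -0.85, -0.57 and 0.31 in colon, a difference of -2.77 (SE 0.21), and Mcm6, a subunit of the replicative helicase, differed by -2.62 (SE 0.20). Of 18 genes of crypt stem cells and Wnt targets 10 were higher in colon, with Prom1 at -3.87 (SE 0.23) and Ephb3 at -2.29 (SE 0.15). Olfm4, a crypt stem cell marker, was called higher in liver at 0.74 (SE 0.22) and lost the call with median centring and within the HF-low-suf mice, among other alternatives. Lgr5, the receptor that marks crypt base stem cells, had a difference of -0.32 and did not pass.

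Cytosolic ribosomal proteins were called higher in colon in 64 of 76 cases, with a median of -0.89 and no gene higher in liver. The count was 61 to 72 over the alternatives. Rplp0, a protein of the ribosomal stalk often used as a reference in quantitative PCR, had log2 ratios of -1.75, -1.32 and -1.02 in liver and 0.03, 0.39 and 0.76 in colon, a difference of -1.74 (SE 0.10). Proteasome subunits went the other way with 19 of 34 higher in liver, a median of 0.62 and 1 higher in colon, Psmb10 of the immunoproteasome, at -1.36 (SE 0.11). With median centring 4 of the 34 were called higher in liver. Of 68 respiratory chain subunits 61 were not called, 4 were higher in liver and 3 in colon, with a median of 0.22. Over the alternatives 2 to 13 were higher in liver and 0 to 5 in colon. Among 14 transcripts in common use for normalization, 2 were higher in liver, B2m by 1.52 (SE 0.13) among them, while Ywhaz, Actb and Rplp0 were higher in colon by 1.42, 1.04 and 1.74 on the log2 scale, and 9 were not called. Over the alternatives 2 to 5 were higher in liver and 3 to 5 in colon.

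Macrophage and endothelial genes of the liver were higher there in 11 of 12 cases, with a median of 2.29. Cd5l, a protein secreted by tissue macrophages, had log2 ratios of 2.19, 3.63 and 4.70 in liver and -4.08, -2.97 and -1.41 in colon, a difference of 6.52 (SE 0.24), and Clec4f, a lectin of Kupffer cells, differed by 4.99 (SE 0.19). Among antimicrobial genes 8 of 21 were higher in liver and 9 in colon. Hamp, the iron hormone hepcidin, and its copy Hamp2 differed by 4.29 (SE 0.12) and 4.59 (SE 0.14), or by 6.02 and 7.36 in Cy3 alone, and Reg3b, an intestinal lectin, by -3.90 (SE 0.23). Reg3b lay far below the reference in both tissues, at -4.73 to -2.12 in colon and -7.90 to -6.82 in liver. Of 15 B and plasma cell genes 3 were higher in colon, including Jchain, which joins secreted immunoglobulin A, at -2.01 (SE 0.19), and 3 in liver. Over the alternatives these counts were 1 to 6 and 1 to 4. Of the 15, 5 were measured in liver and 6 in colon.

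Genes of adipose tissue, skeletal muscle, pancreas and blood were examined for comparison. Of 11 adipose genes 10 were higher in colon, with Adipoq at -3.95 (SE 0.40) and Fabp4 at -3.71 (SE 0.38), and the list median over the colons was 0.43 to 2.18. Of 21 skeletal muscle genes 12 were higher in liver by at most 1.25 and 1 in colon, with list medians of log2 ratios of -4.76 to -2.65 in liver and -5.16 to -4.37 in colon. Without the 5 mice whose liver stood apart, 3 of the 21 were called higher in liver. Of 15 pancreas genes 8 were higher in liver and 2 in colon, with a median of 0.62. Of these 15, 6 were measured in liver and 8 in colon, and with median centring 2 were called higher in liver. The 99 probes more than 2 log2 units below the reference on every array had a median difference of 0.46, from -3.90 in Reg3b to 1.45. Of these 99, 43 were called higher in liver and 12 in colon, against 11.4% and 12.2% of all probes. Small differences among such probes were thus common, more of them toward liver, and what gives rise to them was not tested. Of 5 red blood cell genes 3 were higher in liver, Hba-a1 by 2.90 (SE 0.21), Alas2 by 2.84 (SE 0.15) and Slc4a1, measured in neither tissue, by 0.82 (SE 0.13), and the part of blood left in the tissues in these values was not tested.

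Selenium and folate differed between the diets of these mice, and the genes that handle them are given next. Among all named genes 14.2% were higher in liver and 16.3% in colon. In both lists the 4 genes called higher in colon were a smaller share than that of all named genes. Of 27 genes of selenoproteins and selenium handling 12 were higher in liver and 4 in colon, with a median of 0.33, which turned to -0.09 with median centring, where 7 were called higher in liver. The colon count reached 7 among the alternatives. Selenop, the selenium carrier of plasma, had log2 ratios of 1.15, 1.44 and 1.81 in liver and -1.69, -1.19 and -0.83 in colon, a difference of 2.68 (SE 0.09). Its Cy5 signal was 1.24 log2 units lower on liver arrays, and Cy3 alone gave a difference of 1.44. Scly, which recovers selenium from selenocysteine, differed by 2.62 (SE 0.08), Gpx1, the cytosolic glutathione peroxidase, by 2.37 (SE 0.09), Sephs2, which makes the selenium donor, by 2.21 (SE 0.26; higher in liver in 11 of 12 mice) and Msrb1, a methionine sulfoxide reductase, by 1.69 (SE 0.10). Smaller differences of 1.07 to 0.59 were found in Eefsec, Txnrd2, Dio1, Gpx4, Sepsecs, Selenot and Secisbp2. Gpx2, the gastrointestinal peroxidase, had -4.49, -4.0 and -2.73 in liver and -0.32, 0.14 and 0.67 in colon, a difference of -4.0 (SE 0.16). Selenom, a selenoprotein of the endoplasmic reticulum, differed by -3.90 (SE 0.13), and the selenium-binding proteins Selenbp1 and Selenbp2, which hold no selenocysteine and may share signal between their probes, by -1.32 (SE 0.10) and -1.24 (SE 0.10).

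Folate and one-carbon genes were higher in liver in 17 of 31 cases and in colon in 4, with a median of 1.40. The colon count reached 7 among the alternatives, and the median was 0.93 with median centring. The sharpest contrast lay within the methionine adenosyltransferases. Mat1a, the form of adult liver, had log2 ratios of 3.18, 3.72 and 4.31 in liver and -4.41, -3.95 and -3.55 in colon, a difference of 7.75 (SE 0.13), while Mat2a, the form of other tissues, had -2.49, -1.64 and -1.17 in liver and -0.33, -0.09 and 0.83 in colon, a difference of -1.76 (SE 0.14), and its regulatory subunit Mat2b differed by -1.0 (SE 0.09). Bhmt and Bhmt2, which remethylate homocysteine with betaine or a related donor, differed by 7.03 (SE 0.13) and 6.42 (SE 0.10). Gnmt, which disposes of excess methyl groups, differed by 5.81 (SE 0.24), or 6.08 without HF-low-low replicate 6, whose liver lay at -0.90, Pemt, a phospholipid methyltransferase, by 4.55 (SE 0.12) and Aldh1l1, which oxidises formyl folate, by 4.53 (SE 0.15). Ahcy, Cth, Fpgs, Shmt2, Cbs, Slc46a1, Shmt1, Mthfd1, Folr2 and Chdh followed with differences of 3.53 down to 1.11. Besides the Mat2 genes, Tyms, the thymidylate synthase of dividing cells, and Dnmt1, the maintenance DNA methyltransferase, were higher in colon by 0.88 and 0.81 on the log2 scale. Mtr and Mtrr, which act in the remethylation of homocysteine, had differences of -0.10 and 0.33 and did not pass, and Mtrr was well above background on 0 arrays.

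**Figure D5:**
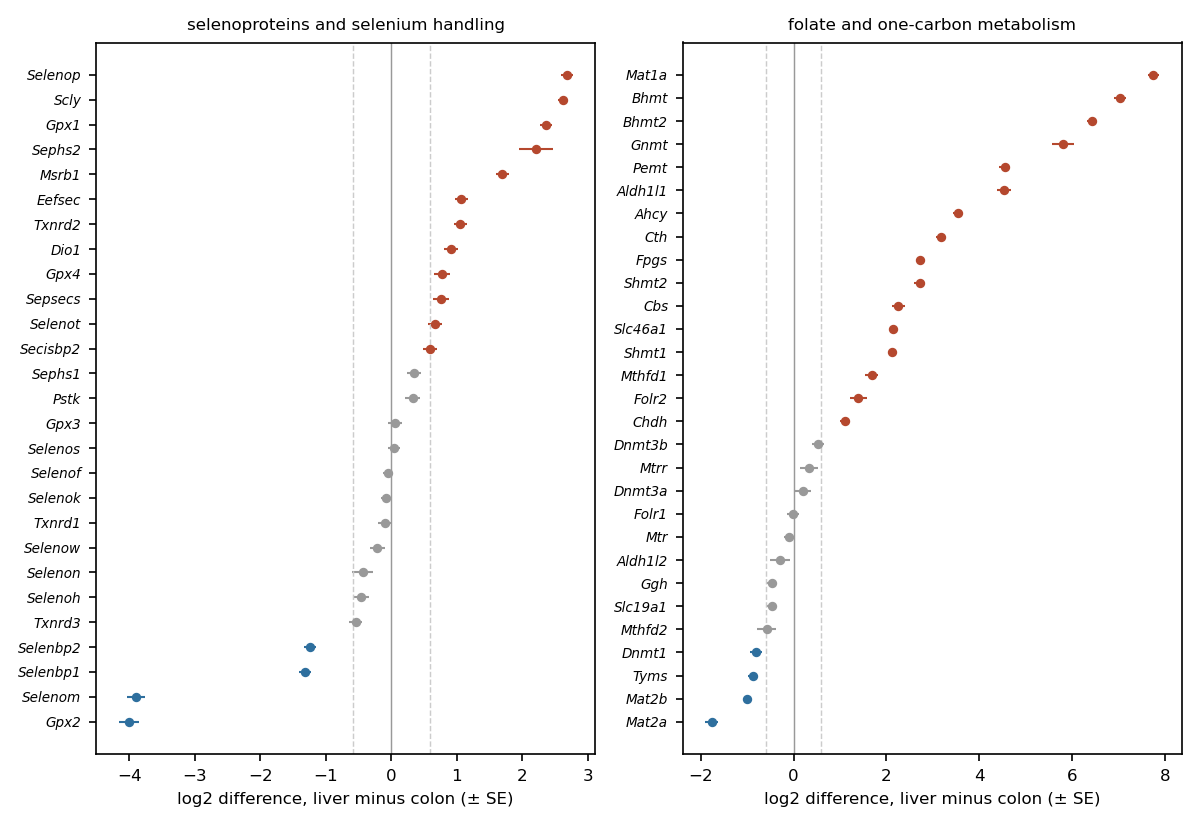
Log2 difference, liver minus colon, with its standard error for the genes of the selenium list (left) and for 29 of the 31 genes of the folate and one-carbon list (right), red where called higher in liver, blue where called higher in colon and grey where not called, with dashed lines at a fold change of 1.5. Gpx2 at -4.0 and Selenop at 2.68 end the left panel and Mat2a at -1.76 and Mat1a at 7.75 the right one.

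Some genes gave opposite results by probe. Of 1569 named genes with at least 2 called probes, 39 had probes called in opposite directions, and in 13 of these both probes were measured in both tissues. Osbpl10, Cdca2, Plcl1, Bmf, Oplah and H2-Q1 had probes furthest apart. The probes of Cdca2, a regulator of mitotic exit, differed by 2.81 (SE 0.09) and -0.72 (SE 0.15), and those of the histocompatibility gene H2-Q1, which resembles other members of its family, by 0.95 (SE 0.13) and -2.69 (SE 0.15). Which transcripts such probes bind was not examined, and the value of a gene above is that of 1 probe.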

How the data were processed

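Whole liver and colon RNA (Cy3) was hybridised with a common reference (Cy5) on 24 Agilent dual-colour arrays, and the authors deposited the spot intensity files of Feature Extraction 9.5.3.1 (mean and background intensity, flags, processed signals). From these, limma 3.58.1 in R 4.3.3 with statmod 1.5.0 was used. Control spots were left out, background was corrected by normexp with an offset of 50, arrays were normalized by loess, outlier spots were dropped (0.47% of probe values missing) and spots of a probe averaged. The linear model held tissue and diet, with the mouse as a random block (estimated correlation 0.151). Each array carries 45018 spots, 41174 probes were tested, and the number of arrays limits the precision. The same replicate number within a diet is the same mouse by the labels. The deviations of its liver and colon from their group means correlated at -0.026 to 0.285, median 0.146, and 8 of 12 mice were over 0.1. Slide and replicate number coincide.

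Genes were named by rule: the markers, the 15 largest differences in each direction among unsaturated genes measured in both tissues, the 15 largest lower bounds in each direction, up to 3 leading and 2 opposite members of each list, all called selenium and folate genes, and 6 genes with opposite probes. Members and lists were chosen with earlier results of these data known. Other genes, and the lists of kidney, Paneth cell, Y chromosome, decidua, brain, testis and heart genes, were picked with their values in view. Lists take the probe of highest mean intensity. Some genes that the rule names are not reported here, though counts and medians include them. Promoters came from RefSeq (GRCm38.p6). The scripts were tested on simulated data. Alternatives covered background, normalization, flags, filters, blocks, diets, scan days and each mouse in turn, and the set without 5 mice was chosen after seeing the data.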

Additional observations from a re-analysis of the deposited data

Results flagged for a closer look

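On all arrays of both tissues, 99 probes lay more than 2 log2 units below the Cy5 reference, which the labels describe as a mixture of these tissues. This was picked out as a signal of the reference channel, outside the comparison of liver with colon. The lowest log2 ratio among them was -8.23, 13 of them belonged to the skeletal muscle list, 9 to the kidney list and 12 to the Paneth cell list. The source of these transcripts was not tested. The interaction of tissue with diet, by limma, passed an adjusted P of 0.05 in 0 of 41174 probes, and 2636 had an unadjusted P under 0.05.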

How the results depend on the processing

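No call turned direction in any of 28 alternatives. The 222 named probes kept direction and call in 6100 comparisons with an alternative, lost the call in 108 and reversed in 0. Of list medians, 987 moved by less than the spread between mice and 49 by more. With median centring 2674 probes were higher in liver. With Feature Extraction's processed signals and no loess 8031 were higher in colon, and the median of all differences shifted to -0.19. With no limit on the fold change 7969 were higher in liver and 7782 in colon, and over 2-fold 2453 and 2759. Leaving out each mouse in turn gave 4618 to 4799 higher in liver and 4897 to 5184 in colon. With the mouse as a fixed block the counts were 4673 and 5009, with no block for the mouse 4661 and 5006, and the pairing moved no count by over 1.5 times. With the slide as a fixed block in place of the mouse they were 4656 and 5002. Within scan day 1 they were 4916 and 5009, within day 2 4224 and 4645, within HF-low-low mice 4717 and 5048 and within HF-low-suf mice 4676 and 4890. Without dim probes, 4024 and 4671 of 19080 were called. Neither tissue measured 22094 probes, whose values lie near background, and dye bias cannot be told apart from the reference without dye swaps. The cause of these shifts was not tested.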
